A study of Mus musculus with 11 samples.

Results

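Imprinted genes are copied from only the maternal or only the paternal allele, and in islets of Langerhans several of them act on growth and on insulin and IGF signalling. Their levels were read in the RNA of islets from mice with the P33T exchange in PDX1, a transcription factor that directs pancreas development and beta cell function. The set was fixed by name as 10 genes, namely *Meg3*, *Rian*, *Mirg*, *Dlk1*, *H19*, *Igf2*, *Peg3*, *Plagl1*, *Cdkn1c* and *Grb10*, and 9 of them have a row among the 19329 gene IDs of the deposited table. *H19* has no row, so no value is given for it. All mice were 14-week-old males of the inbred C57BL/6N strain that received no treatment. The groups were 6 wild-type libraries and 5 libraries labelled PDX1 P33T/P33T, the homozygous mutants, called PDX1 P33T from here on. The islets were cultured after isolation, and RNA came from whole islets. The study calls the libraries biological replicates and states that several mice contributed to each. The methods name matings within a genotype as well as wild-type littermates, so whether mutants and controls shared litters is not clear. The parent of origin was not measured, because the values do not separate the alleles.

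An imprint is DNA methylation that is set in the egg or the sperm and kept at a control region in all later cells, where it decides which allele of the neighbouring genes is silent. *Dlk1* is copied from the paternal allele and *Meg3*, *Rian* and *Mirg*, which are long non-coding RNAs, from the maternal allele of the same domain. *Igf2* is paternal and *H19* maternal, and *Cdkn1c* is a maternal gene further along the same chromosome. *Peg3* and *Plagl1* are paternal, and *Grb10* is mostly maternal outside the nervous system. In human islets this family is known for loss of *MEG3* expression in type 2 diabetes and for growth disorders with altered insulin secretion.

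The positions of the members show which of them share a domain. In GRCm38 with the GENCODE vM21 annotation, *Dlk1* spans chr12:109452823-109463336, *Meg3* chr12:109541001-109571726, *Rian* chr12:109603940-109661716 and *Mirg* chr12:109729764-109749460, all on the plus strand. *Dlk1* and *Mirg*, the outer genes, lie 266 kb apart. *Peg3* spans chr7:6703892-6730431, *H19* chr7:142575529-142578143, *Igf2* chr7:142650766-142666816 and *Cdkn1c* chr7:143458339-143461050, all on the minus strand. *Plagl1* spans chr10:13060504-13131694 on the plus strand and *Grb10* spans chr11:11930508-12038683 on the minus strand.

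*Meg3*, *Rian* and *Mirg* are also host transcripts of microRNAs, and their products differ between hosts. In the RefSeq table for GRCm38.p6, 3 mature microRNAs lie inside *Meg3*, 6 inside *Rian*, 26 inside *Mirg*, 2 inside *H19* and 2 inside *Igf2* on the strand of the host. These 39 sequences carry 38 seeds (bases 2 to 8, the part that pairs with targets). The only seed held by more than 1 of them, GGUUGCC, is shared by miR-453 and miR-496a-5p of *Mirg*. The libraries were made from mRNA and do not measure mature microRNAs, so the values below are those of the hosts. The sequences below show 1 product for each of 4 hosts and the pair with a shared seed, with the seed in capitals and read 5′ to 3′.
mmu-miR-770-5p: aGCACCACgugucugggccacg
mmu-miR-370-3p: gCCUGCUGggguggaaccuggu
mmu-miR-453: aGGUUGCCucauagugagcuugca
mmu-miR-496a-5p: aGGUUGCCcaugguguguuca
mmu-miR-410-3p: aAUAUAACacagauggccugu
mmu-miR-483-3p: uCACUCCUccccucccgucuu
Of these, miR-770-5p lies in an exon of *Meg3* at chr12:109563710-109563731 and miR-370-3p in an intron of *Rian* at chr12:109618305-109618326. miR-453 at chr12:109735669-109735692 and miR-496a-5p at chr12:109739132-109739152 lie in introns of *Mirg*, and miR-410-3p at chr12:109743764-109743784 lies in an exon of it. The seed of miR-410-3p is held by 5 mature microRNAs of the RefSeq table. miR-483-3p lies in an intron of *Igf2* at chr7:142654932-142654952 on the minus strand.

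Levels are given as FPKM, that is reads scaled by gene length and by the counted reads of the library, and can therefore be compared between genes. The libraries held between 19311937 counted reads in wild-type replicate 3 and 37094286 in wild-type replicate 4. In a gene of 1 kb, 1 read thus stands for 0.0518 FPKM in the former and 0.027 FPKM in the latter. Errors are SD over 5 PDX1 P33T or 6 wild-type libraries throughout. The tissue matched its label, with *Ins2* at 152890 ± 19886 FPKM, *Gcg* at 10618 ± 1335, *Sst* at 5720 ± 775 and *Ppy* at 6218 ± 3096 in PDX1 P33T.

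In PDX1 P33T islets *Peg3* stood far above the other members, *Dlk1*, *Rian* and *Grb10* followed, and *Igf2* was lowest. *Peg3*, a paternally expressed zinc finger protein, was at 44.5, 44.9, 49.5, 45.2 and 51.2 FPKM in replicates 1 to 5. Its mean of 47.0 ± 3.08 FPKM exceeded that of 95.9% of the 18963 genes with a value in these libraries, whose median was 1.77 FPKM. *Peg3* was also the least variable member, with a coefficient of variation of 6.55% against a median of 13.3% over the 11190 genes of at least 1 FPKM.

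*Dlk1*, a transmembrane Notch-like protein, was at 7.002, 3.28, 4.70, 6.56 and 4.64 FPKM in replicates 1 to 5, with a mean of 5.24 ± 1.53. Replicates 1 and 4 were high and replicate 2 was low, and highest and lowest differed 2.14-fold. *Rian*, the host of small nucleolar RNAs and microRNAs, was at 3.71, 7.71, 4.65, 3.78 and 4.65 FPKM, with a mean of 4.90 ± 1.63. Here replicate 2 was high and replicates 1 and 4 were low. *Grb10*, an adaptor that dampens insulin and IGF receptor signalling, was at 3.76, 2.59, 4.00, 4.07 and 3.85 FPKM, with a mean of 3.66 ± 0.607 and only replicate 2 apart. The ranges of *Dlk1*, *Rian* and *Grb10* overlapped, so their order is not beyond the spread between libraries.

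*Cdkn1c*, which encodes the cyclin-dependent kinase inhibitor p57, was at 0.930, 1.10, 1.08, 1.06 and 1.36 FPKM, a mean of 1.10 ± 0.156 from 51 to 102 reads per library. *Meg3*, the long non-coding RNA that names the domain, was at 1.04, 1.66, 0.818, 1.01 and 0.805 FPKM, a mean of 1.07 ± 0.347 from 474 to 750 reads. These genes overlapped in range, and *Meg3* was below *Dlk1* and *Rian* of its own domain in every PDX1 P33T library. *Plagl1*, a zinc finger transcription factor that restrains proliferation, was at 0.518, 0.426, 0.444, 0.545 and 0.437 FPKM, with a mean of 0.474 ± 0.0539. *Mirg* was at 0.275, 0.283, 0.264, 0.234 and 0.253 FPKM from only 42 to 68 reads, with a mean of 0.262 ± 0.0194. *Igf2*, the fetal growth factor, was at 0.0520, 0.140, 0.211, 0.0993 and 0.0711 FPKM from 8 to 39 reads, with a mean of 0.115 ± 0.0633. Of the 36 pairs of members, 32 did not overlap in range, and the exceptions were the pairs among *Dlk1*, *Rian* and *Grb10* and the pair of *Cdkn1c* and *Meg3*.

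**Figure D1:**
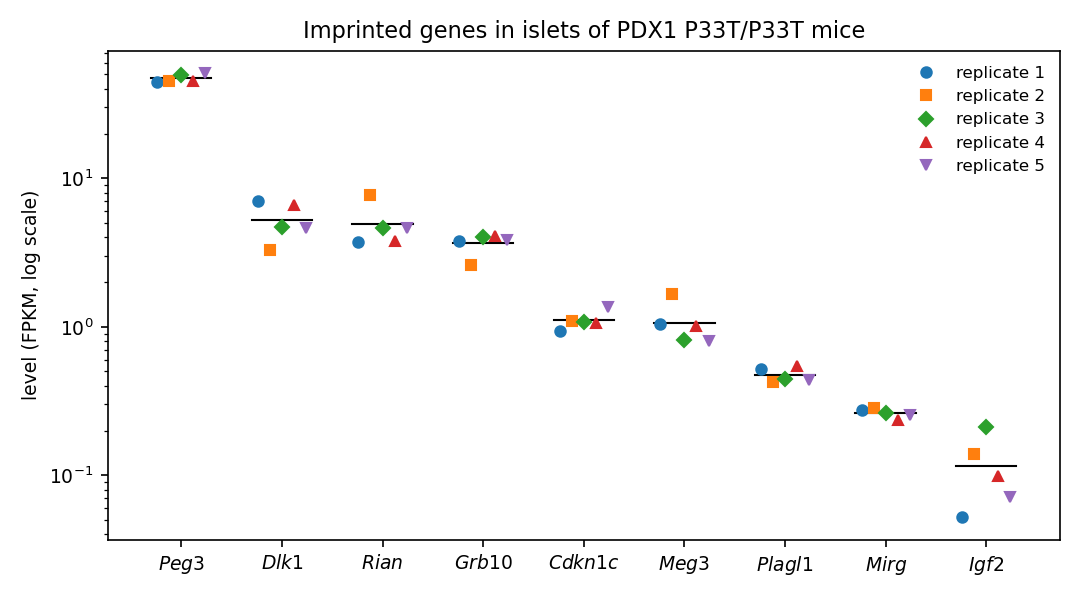
Level of each of the 9 members in the 5 PDX1 P33T libraries, in FPKM on a log axis, with 1 symbol per library and a bar at the mean. *Peg3* lies between 44.5 and 51.2 FPKM, above all others, and *Igf2* between 0.0520 and 0.211 FPKM.

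The levels of *Rian*, *Meg3* and *Peg3* depend on the gene length behind the FPKM. The length recovered from the values was 31981 bases for *Rian*, 19071 for *Meg3* and 13616 for *Peg3*, against 18234, 18089 and 13324 bases of exons in GENCODE vM21. The other 6 members had the same length as in that annotation. Over the shorter length the *Rian* value would be 1.75-fold higher, that of *Meg3* 1.05-fold and that of *Peg3* 1.02-fold.

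The library of PDX1 P33T replicate 2 stood apart from the other mutant libraries. It held the lowest or the highest value of the 5 libraries at 78.3% of the 11190 genes of at least 1 FPKM, against 22.2% to 39.5% for the others. It had the highest *Rian* and *Meg3* and the lowest *Dlk1*, *Grb10* and *Plagl1*. Without it the mean was 0.919 FPKM for *Meg3*, 4.20 for *Rian*, 5.73 for *Dlk1* and 3.92 for *Grb10*. *Rian* and *Meg3* were unlike in the remaining libraries, since *Meg3* was higher in replicates 1 and 4 than in 3 and 5, and *Rian* lower. The genes most like *Meg3* over the 5 libraries, among those of at least 1 FPKM, were *Rpl32*, *Ndufs6* and *Dpm3*. Their deviations from the mean differed from those of *Meg3* by 0.022, 0.029 and 0.032 on the log2 scale on average. *Rpl32* encodes a ribosomal protein, *Ndufs6* a subunit of respiratory complex I and *Dpm3* a subunit of dolichol-phosphate mannose synthase. No member of the set is among them, and with 5 libraries of which 1 stands apart many genes can share such a pattern.

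Summed markers of several cell types were high in the same mutant libraries as *Dlk1*, and those of other cell types were not. The 4 endothelial markers *Pecam1*, *Cdh5*, *Plvap* and *Kdr*, all measured, summed to 118, 53.1, 90.1, 123 and 89.3 FPKM in replicates 1 to 5, with *Plvap* the most abundant at 56.0 FPKM on average. Replicates 1 and 4 were thus high and replicate 2 low for *Dlk1* and for these markers alike. The 6 mesenchymal markers, summed, were at 8.50, 3.77, 5.22, 7.78 and 5.24 FPKM in the same libraries. This sum follows *Pdgfrb*, its most abundant gene, whereas *Pdgfra* was highest in replicate 2 and *Col1a1* and *Dcn* were not lowest there. Replicates 1 and 4 were also the highest for the 3 delta cell markers, which summed to 6931, 5414, 5280.0, 6663 and 5444 FPKM. The same held for *Ppy* at 9821, 7472, 2916, 7857 and 3024 FPKM and for the sum of the 4 Schwann cell markers at 3.57, 2.80, 2.73, 3.77 and 2.76 FPKM. The 5 immune markers, of which *Cd3e* has no row, summed to 34.6, 31.4, 28.3, 33.3 and 30.6 FPKM. In these 4 cell types replicate 2 was not the lowest, which for the immune sum rests on *Cd79a*, at 15.7 FPKM in replicate 2 against 8.41 to 9.73 in the others. The other immune markers *Cd68*, *Adgre1* and *Ptprc* were each lowest in replicate 2 and together summed to 24.8, 15.6, 19.9, 24.4 and 22.1 FPKM. The alpha cell gene *Gcg* ran the other way in replicates 1 and 4, at 9022, 10712, 11983, 9523 and 11849.9 FPKM. The summed 8 beta cell markers, most abundant of them *Ins2*, were highest in replicate 2, at 334926 FPKM, against 237100 to 291450 in the others. *Ins2*, *Ins1* and *Iapp* carry this sum, and other members of the list went the other way in replicate 2. *Mafa* was at 203 FPKM there against 266 to 287 in the others, *Ucn3* at 514 against 599 to 622 and *Nkx6-1* at 87.2 against 108 to 121. The summed 6 acinar markers, led by *Ctrb1*, were also highest in replicate 2, at 74.6 FPKM against 3.94 to 11.6. The sum of the 4 ductal markers was highest there too, at 81.9 FPKM against 68.6 to 80.9, but it follows *Spp1*. Of the other ductal markers, *Sox9* was lowest in replicate 2, at 0.132 FPKM against 0.255 to 0.468. *Cftr* was at 0 there, and *Krt19* was highest in replicate 5. The part of cell composition in the values of *Dlk1*, *Meg3* and *Rian* was not tested, and in bulk RNA fewer cells of a type and less RNA per cell cannot be told apart.

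**Figure D2:**
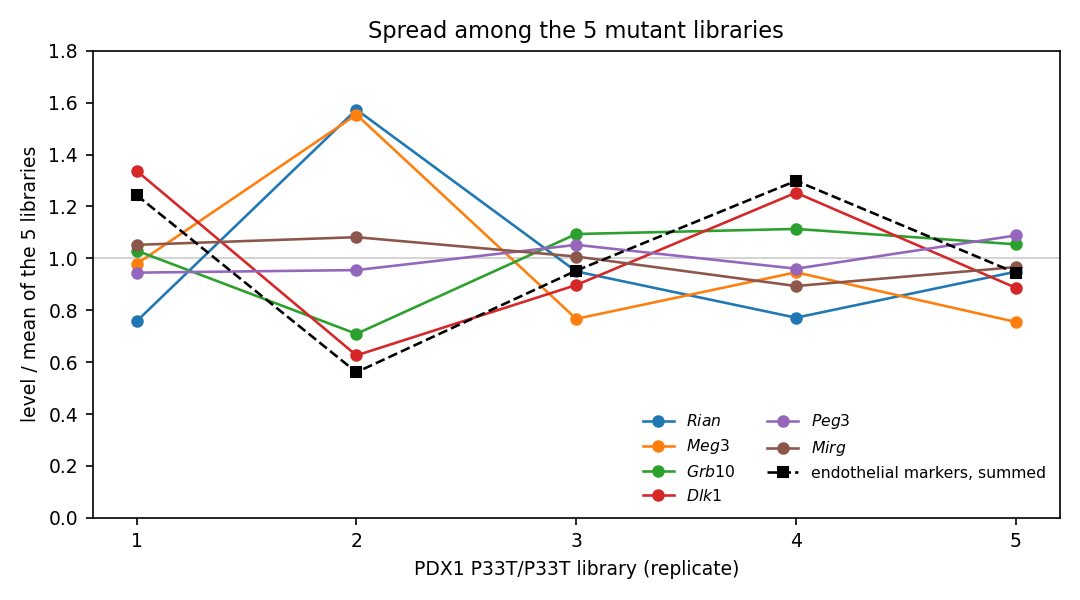
Level of 6 members and summed level of 4 endothelial markers in each PDX1 P33T library, divided by the mean of the 5 libraries (y axis, no unit). *Rian* and *Meg3* peak in replicate 2, where *Dlk1*, *Grb10* and the endothelial markers are lowest, while *Peg3* and *Mirg* stay close to 1.

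The domains of the members differed in what was detected beside them. Between *Meg3* and *Rian*, the paternal gene *Rtl1*, which derives from a retrotransposon, was at 0.0336 ± 0.0154 FPKM, and *Dio3*, at the far end of the domain, has no row. On distal chromosome 7, *Igf2* and *Cdkn1c* lie among genes of very unlike level. *Tssc4* was at 71.3 ± 6.18 FPKM, the tetraspanin *Cd81* at 34.5 ± 3.89 and the nucleosome assembly protein *Nap1l4* at 29.4 ± 3.39. The potassium channel gene *Kcnq1* was at 0.835 ± 0.175 FPKM. Its antisense RNA *Kcnq1ot1*, which silences paternal alleles of genes around *Cdkn1c*, was at 0.0155 ± 0.00749 FPKM. *Cdkn1c* was below *Tssc4*, *Cd81* and *Nap1l4* and above *Igf2* in every library. Whether the libraries kept the strand is not stated, so reads of antisense partners such as *Kcnq1* and *Kcnq1ot1* may be mixed.

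**Figure D3:**
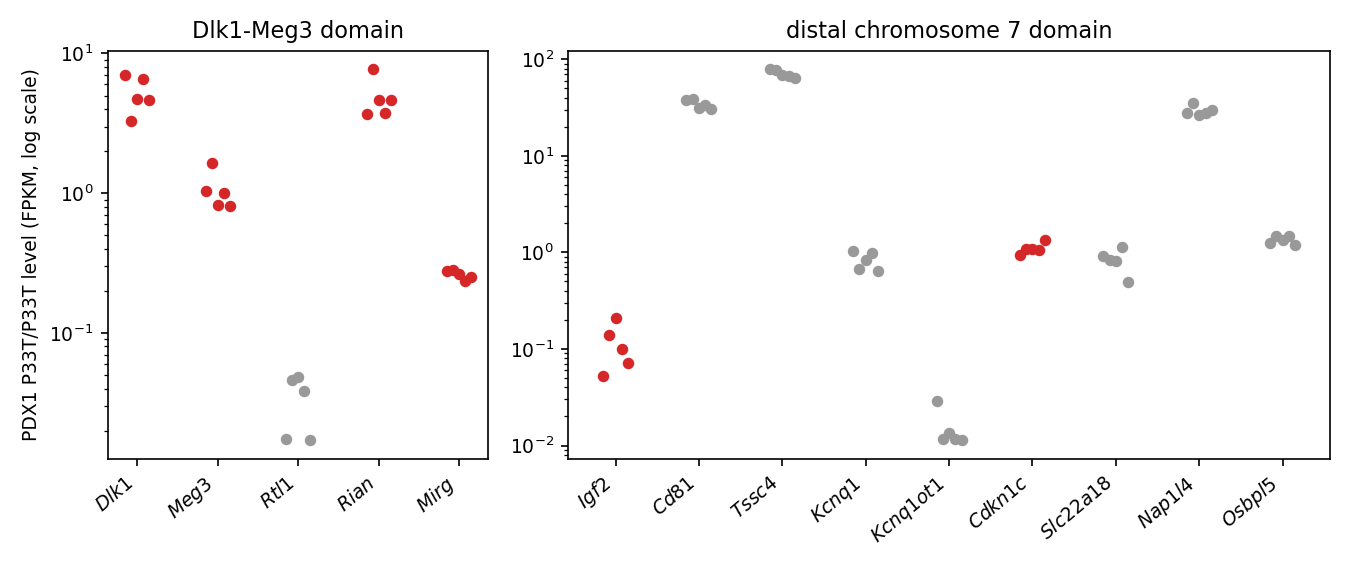
PDX1 P33T levels in FPKM on a log axis for genes of the *Dlk1*-*Meg3* domain and of distal chromosome 7, in genomic order. There is 1 point per library, with members in red and genes of the further imprinted list in grey. *Rtl1* lies below 0.05 FPKM between *Meg3* and *Rian*, and *Tssc4* reaches 78.6 FPKM.

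The promoter windows of the members differed in their number of CpG. RefSeq gives 13 promoter windows, each from 250 bases before to 50 bases after the start, for 8 of the 10 members. The *Grb10* window at chr11:12037371-12037670 held 45 CpG and that of *Rian* 0, against a median of 7 over all 32817 windows. The letters TGCCGC, the core of the motif of ZFP57, which guards imprints, were found on either strand in 4 of the 13 windows, belonging to *Igf2*, *Plagl1*, *Grb10* and *Meg3*. They were found in 11.6% of all windows, and a match is no more than a match of letters.

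The design asks whether the P33T exchange changed these genes, and the answer is limited by the wild-type columns, in which most values are out of place, beside the IDs of genes they do not belong to. A wild-type row was tied to a gene by the wild-type reads that the study lists for part of the genes or, failing that, by the gene length recovered from the values and the level, and 5110 of 19329 genes were placed. Of the members, *Peg3*, *Rian*, *Meg3* and *Mirg* were placed, each by a length that no other candidate shared at that level. Matching needed group means within 4-fold, so a member changed by more than that could not have been placed.

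None of the 4 placed members was called by limma on log2(FPKM + 0.1), where a call needed an adjusted p no higher than 0.05 together with a 1.5-fold change, and 0 of 4 had an unadjusted p below 0.05. An unadjusted p below 0.05 was found for 5.18% of the genes placed by length, as the members were, and for 32.2% of all genes in the fit. Without wild-type replicate 1 it was found for 1 of the 4, *Mirg*, and for 2308 of the 5071 genes in that fit. That count pools genes placed by length and by reads, so it is not the share among genes placed by length. Over all 5071 genes in the fit 6 were called, which is 0.118%. Of the 3399 genes placed by length 2 were called, which is 0.0588%, and of the 1672 placed by reads 0.239%. A share this small makes 0 of 4 no result about the members. The groups overlapped in all 4. Groups without overlap made up 4.58% of all genes in the fit and 0.559% of those placed by length.

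*Peg3* ranged from 39.6 to 49.6 FPKM in wild-type, with a median of 41.6, against 44.5 to 51.2 FPKM in PDX1 P33T. The means were 43.1 ± 4.24 and 47.0 ± 3.08 FPKM. The log2 fold change was 0.13 (SE 0.088, limma adjusted p = 1.0, two-sided exact permutation p = 0.123). *Usp29*, whose start lies 0.146 kb from that of *Peg3* on the other strand and which was singled out for that after its values were seen, ranged from 2.13 to 2.58 FPKM in wild-type and from 2.28 to 2.62 in PDX1 P33T. Its log2 fold change was 0.076 (SE 0.086, limma adjusted p = 1.0), so neither gene of the pair moved beyond the spread.

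*Rian* ranged from 2.29 to 4.60 FPKM in wild-type, with a median of 4.00 and 1412 to 5062 reads. The means were 3.67 ± 0.925 FPKM in wild-type and 4.90 ± 1.63 in PDX1 P33T. The log2 fold change was 0.39 (SE 0.22, limma adjusted p = 0.790, exact permutation p = 0.160). Without PDX1 P33T replicate 2 it was 0.22, without wild-type replicate 3 it was 0.27 and without wild-type replicate 1 it was 0.46.

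*Meg3* ranged from 0.486 to 1.55 FPKM in wild-type, with a median of 1.31, and the means were 1.20 ± 0.396 and 1.07 ± 0.347 FPKM. The log2 fold change was -0.12 (SE 0.27, limma adjusted p = 1.0, exact permutation p = 0.723). It was -0.33 without wild-type replicate 1, -0.034 without wild-type replicate 3 and -0.28 without PDX1 P33T replicate 2. *Mirg* ranged from 0.135 to 0.724 FPKM in wild-type, from 23 to 102 reads, with a median of 0.410. Its means were 0.418 ± 0.189 FPKM in wild-type and 0.262 ± 0.0194 in PDX1 P33T. The log2 fold change was -0.43 (SE 0.25, limma adjusted p = 0.856, exact permutation p = 0.149). Without wild-type replicate 1 it was -0.64 (limma unadjusted p = 0.00202, adjusted p = 0.158), and without wild-type replicate 3 it was -0.28. *Mirg* spread 45.3% in wild-type against 7.40% in PDX1 P33T as a coefficient of variation, and the difference in spread was not tested.

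**Figure D4:**
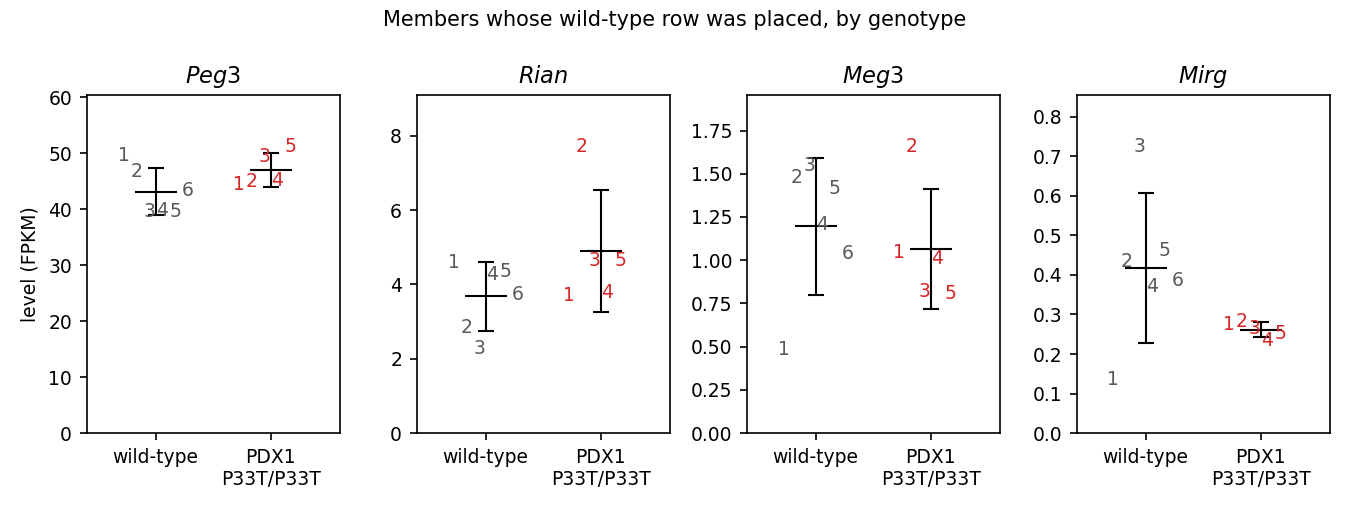
Level in FPKM of the 4 placed members by genotype, each axis from 0, with digits for the replicate number of each library, a bar at the mean and whiskers of 1 SD. The groups overlap in each gene, and wild-type replicates 1 and 3 lie at opposite ends for *Rian*, *Meg3* and *Mirg*.

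The wild-type libraries at the ends of the range were the same for the 3 non-coding members. Wild-type replicate 1 had the lowest *Meg3* and *Mirg* and the highest *Rian*, and replicate 3 had the highest *Meg3* and *Mirg* and the lowest *Rian*. These replicates were the lowest or highest of the 6 at 63.8% and 65.7% of the 3859 placed genes of at least 1 FPKM, against 13.4% to 26.8% for the others. The 3 placed endothelial markers, *Pecam1*, *Cdh5* and *Kdr*, summed to 28.1 FPKM in replicate 1 and 146 in replicate 3, against 41.5 to 62.5 in the others, and the 4 placed mesenchymal markers to 27.1 in replicate 2, against 1.46 to 5.72. The most abundant placed endothelial marker, *Cdh5*, was at 11.9 FPKM in replicate 1 and 62.7 in replicate 3. The 3 placed immune markers, led by *Cd68*, summed to 19.8 FPKM in replicate 1 and 50.6 in replicates 2 and 3, against 23.2 to 28.2 in the others. Among the hormone genes, *Sst* was at 4309 FPKM in replicate 1 and 10589 in replicate 3, against 6796 to 7479 in the others. *Iapp*, the islet amyloid polypeptide of beta cells, was at 32996 FPKM in replicate 1 and 14750.1 in replicate 3, against 20580.5 to 28101 in the others. *Ppy* was highest in replicate 3, at 14937 FPKM, and lowest in replicate 6. *Ins2*, *Ins1* and *Gcg* did not have these replicates at the ends. *Ins2* was at 148765 FPKM in replicate 1 and 136248 in replicate 3, within a range of 113559 to 162510.2, *Ins1* at 88499.7 and 76206 within 59230.3 to 97228, and *Gcg* at 7529 and 8359 within 4702 to 11194. The part of these markers in the values of *Meg3*, *Rian* and *Mirg* was not tested.

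Leaving out the libraries most often at the ends of the range, wild-type replicates 1 and 3 and PDX1 P33T replicate 2, a choice made after the values were seen, gave log2 fold changes of -0.44 for *Meg3*, 0.15 for *Rian*, -0.52 for *Mirg* and 0.17 for *Peg3*. The limma adjusted p was then 0.213, 1.0, 0.122 and 0.493, so none was called, while *Meg3*, *Mirg* and *Peg3* had an unadjusted p of 0.00833, 0.00149 and 0.0475. An unadjusted p below 0.05 was found for 1913 of the 5071 genes in that fit. That count pools genes placed by length, as the members were, with genes placed by reads. With all libraries kept, the limma shares below 0.05 were 5.18% by length and 87.2% by reads. The pooled count is thus no background for the members. With wild-type replicate 2, the library high in mesenchymal and immune markers, left out in place of replicate 1, they were -0.082 for *Meg3*, -0.016 for *Rian*, -0.23 for *Mirg* and 0.15 for *Peg3*. The size of the difference in *Meg3* and *Mirg*, and in *Rian* also its direction, thus turned on which wild-type libraries were kept.

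*Dlk1*, *Grb10*, *Plagl1*, *Cdkn1c* and *Igf2* share their length with other unplaced genes, so every free wild-type row of that length is given and no test was run. For *Grb10*, *Plagl1* and *Cdkn1c* there are fewer free rows than unplaced genes of the length, so the row of the member may not be among them. For *Dlk1*, which shares 5657 bases with *Sart3*, a row ranged from 4.67 to 5.74 FPKM with a mean of 5.08 ± 0.450, and another from 1.51 to 5.52 with a mean of 3.63 ± 1.59. *Sart3* was at 4.73 ± 0.657 FPKM in PDX1 P33T, too near to *Dlk1* at 5.24 to tell the rows apart, and both rows overlap the range of *Dlk1*. For *Grb10* with 9089 bases, 5 unplaced genes share 4 free rows. Rows with means of 4.24 ± 0.759 and 4.06 ± 0.748 FPKM could be its own or that of *Bcl2l13*, which was at 4.33 ± 0.370 in PDX1 P33T. Both rows overlap the *Grb10* range, and the other rows of that length had means of 0.425 and 0.0239 FPKM. The remaining genes of that length, *Peli2*, *Cacna1f* and *Dcdc5*, were at 0.318, 0.0336 and 0.0604 FPKM in PDX1 P33T.

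For *Plagl1* with 7819 bases, 3 unplaced genes share 2 free rows. A row ranged from 0.388 to 0.938 FPKM with a mean of 0.606 ± 0.200, overlapping the *Plagl1* range, and the other row had a mean of 3.74 ± 0.247. *Wipf2* and *Snrnp200*, of the same length, were at 3.57 ± 0.439 and 10.5 ± 0.868 FPKM in PDX1 P33T. For *Cdkn1c* with 2039 bases, 4 unplaced genes share 3 free rows, which had means of 3.21 ± 0.235, 1.26 ± 0.352 and 0.386 ± 0.332 FPKM. Of these only the second, from 0.888 to 1.83 FPKM, overlaps the *Cdkn1c* range of 0.930 to 1.36. The other unplaced genes of that length, *Pradc1*, *Atp5s* and *Mrnip*, were at 5.44 ± 0.872, 4.05 ± 0.885 and 0.625 ± 0.137 FPKM in PDX1 P33T. For *Igf2* with 5723 bases, the rows had means of 0.0347 ± 0.0277 and 0.0665 ± 0.0346 FPKM, from at most 17 reads in a library, and *Igf2* was thus below 0.13 FPKM in every wild-type library if either row is its own.

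**Figure D5:**
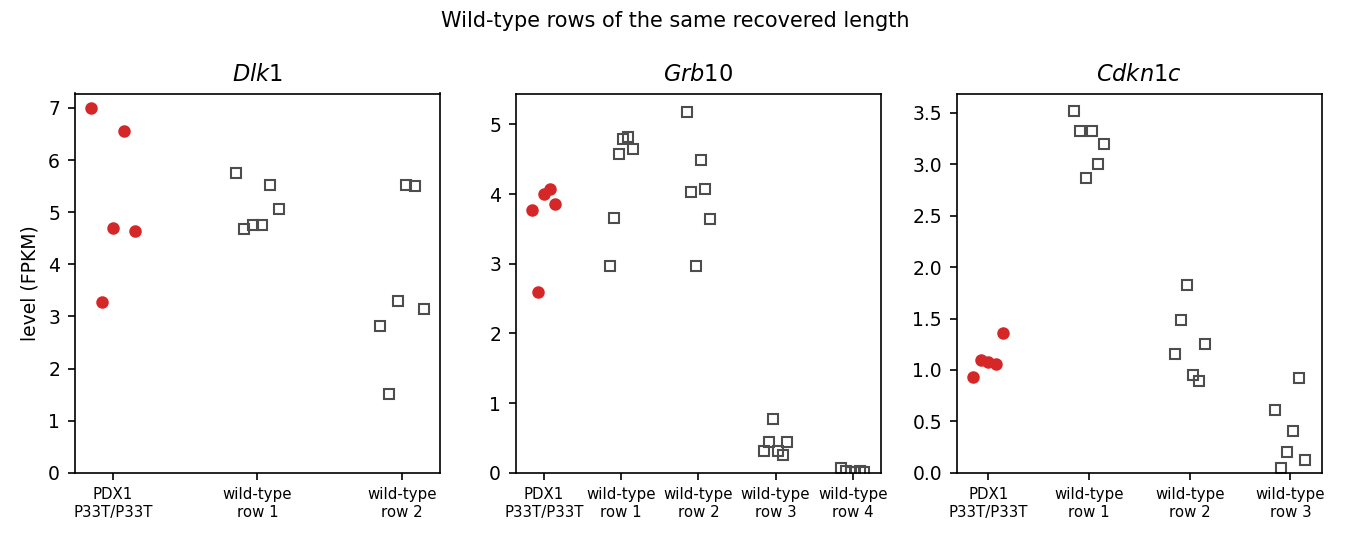
PDX1 P33T levels (red) of *Dlk1*, *Grb10* and *Cdkn1c* in FPKM beside every free wild-type row of the same length (open squares, 6 libraries each), ordered by mean. For *Dlk1* and *Grb10* 2 rows overlap the mutant range and for *Cdkn1c* 1 does.

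Further imprinted genes were read from a list of 45, of which 38 have a row and 13 were placed. Whether each of them, *Osbpl5* included, is imprinted in islets was not measured, because the values do not separate the alleles. Of the 13, 0 were called higher and 1 lower, *Osbpl5*, beside 0.118% called of all genes in the fit and 0.239% of those placed by reads, to which *Osbpl5* belongs. Their median log2 fold change was 0.076, beside -0.057 over all genes in the fit. This median depends on how genes were placed, since it was 0.038 over all genes placed by length and -0.32 over those placed by reads. For the 10 of the 13 placed by length it was 0.10. *Osbpl5*, a lipid transfer protein gene 228 kb from *Cdkn1c*, was at 1.26, 1.49, 1.34, 1.47 and 1.19 FPKM in PDX1 P33T and from 4.54 to 6.25 FPKM in wild-type, with a median of 5.91. The groups did not overlap, and the log2 fold change was -1.96 (SE 0.11, limma adjusted p = 5.67e-06, exact permutation p = 0.00216, the smallest this test gives). *Gnas*, which encodes the stimulatory G protein alpha subunit, was at 6.73, 5.74, 6.25, 6.00 and 5.91 FPKM in PDX1 P33T and from 4.26 to 5.17 in wild-type. These groups did not overlap either, yet the log2 fold change of 0.32 (SE 0.078, limma adjusted p = 0.480) was not called, and *Gnas* overlaps the antisense gene *Nespas*. Both genes were placed by listed reads. In 12.7% of the 1672 genes placed that way the groups did not overlap, since the part of the list held here, made by the study from these libraries, is rich in genes that differ, and it is not independent evidence. The most abundant paternal genes of the list were *Peg13* at 21.8 ± 0.873 FPKM, *Ndn* at 20.6 ± 0.488 and *Snrpn* at 18.8 ± 0.438, and *Snrpn*, the only placed gene of these, had a log2 fold change of -0.055 (SE 0.069, limma adjusted p = 1.0).

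Of 15 genes that keep or erase imprints, 14 have a row, 5 were placed and 0 were called in either direction. All 5 were placed by length, where 0.0588% of genes were called, so this count is no result about the list. The corepressor *Trim28* was at 27.6 ± 3.12 FPKM in PDX1 P33T, the insulator protein gene *Ctcf* at 11.8 ± 0.727 and the zinc finger gene *Zfp445* at 3.87 ± 0.549, whereas *Zfp57* was at 0.0433 ± 0.0453. *Ctcf* had a log2 fold change of 0.13 (SE 0.078, limma adjusted p = 0.923). The median log2 fold change of the 5 was -0.078.

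Of 16 genes of the IGF axis, through which *Igf2* and *Grb10* act, 4 were placed and 0 called. These 4 were also placed by length, and at the same share of 0.0588% called the count says nothing about the list. The binding proteins *Igfbp7* at 163 ± 9.36 FPKM, *Igfbp5* at 30.4 ± 8.98 and *Igfbp3* at 21.3 ± 8.40 were the most abundant. *Igfbp5* was at 38.7, 17.1, 29.5, 38.7 and 27.95 FPKM in PDX1 P33T and from 22.0 to 126 in wild-type. Its log2 fold change was -0.61 (SE 0.36, limma adjusted p = 0.886), which was -0.30 without wild-type replicates 1 and 3 and PDX1 P33T replicate 2, and -0.071 with wild-type replicate 2 left out in place of replicate 1. The placed endothelial markers had log2 fold changes of like size, -0.58 for *Pecam1* (SE 0.34), -0.60 for *Cdh5* (SE 0.37) and -0.67 for *Kdr* (SE 0.34), none of them called, and their part in the *Igfbp5* value was not tested. The receptor gene *Igf1r* was at 4.63 ± 0.769 FPKM and the ligand gene *Igf1* at 0.0695 ± 0.00939, which was below *Igf2* on average.

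Of the 6 further CDK inhibitor genes, 3 were placed and 0 called, beside 0.118% of all genes in the fit, which makes 0 of 3 no result about the list. *Cdkn1a* at 18.9 ± 4.12 FPKM, *Cdkn2b* at 14.97 ± 1.75 and *Cdkn1b* at 11.1 ± 3.00 all exceeded *Cdkn1c* in every PDX1 P33T library. *Cdkn1b* was at 8.86, 15.7, 11.2, 8.05 and 11.6 FPKM, high in replicate 2 like *Rian*. Its log2 fold change was 0.33 (SE 0.16, limma adjusted p = 0.682) and 0.19 without PDX1 P33T replicate 2. That of *Cdkn2b* was -0.30 (SE 0.17, limma adjusted p = 0.811) and -0.17 without wild-type replicate 3. *Cdkn2c*, the remaining placed gene, was at 3.68, 5.87, 4.66, 3.401 and 4.64 FPKM in PDX1 P33T, again highest in replicate 2, and from 3.02 to 3.99 in wild-type, with a median of 3.46. The groups overlapped, and the log2 fold change was 0.32 (SE 0.13, limma unadjusted p = 0.0321, adjusted p = 0.520, exact permutation p = 0.0476). It was placed by listed reads, where 87.2% of genes had an unadjusted p below 0.05, and was 0.21 without PDX1 P33T replicate 2.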

How the data were processed

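Bulk RNA of whole islets was sequenced in 6 wild-type and 5 PDX1 P33T libraries. Per the submitters' processing notes and the methods, the authors used fastp 0.23.1, HISAT2 2.0.5, featureCounts 1.5.0-p3 and DESeq2 1.20.0 with builds GRCm39 and mm39, kept genes with a value in 80% of the replicates of a condition, and deposited FPKM. Both a stranded and an unstranded protocol are named. Coordinates here are from GRCm38 and are not those of the authors.

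Reads per library were recovered from the steps of the FPKM values. Gene length was taken as the shortest that turns every value of the gene into a whole number of reads (tolerance 2e-06 reads, plus 1e-08 relative to the count). A supplementary table of the study, held in part, lists wild-type reads and lengths, and the recovered length was right for 98.3% of 1672 genes in it. These reads placed 1711 genes, and length and level 3399. The latter needed at least 100 reads summed over each genotype, a ratio of group means under 4-fold and every rival row more than 16-fold away, and the rule gave the right row in 402 of 402 genes whose row was known from reads. The table is sorted by gene ID, so the planned alignment by row order could not be used, and 39 placed genes listed at 0 in all PDX1 P33T libraries were left out.

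limma 3.58.1 in R 4.3.3 (trend, robust) was fitted to log2(FPKM + 0.1) over the 5071 genes, without covariates, with Benjamini-Hochberg adjustment over 19329 gene IDs and unplaced genes taken as unchanged. Fold changes are on that scale and understate changes of low genes. Exact permutation tests, two-sided, used all 462 arrangements of the genotype labels. The fit was tested on simulated data. The other software was Python 3.11.15 with matplotlib 3.10.9, scipy 1.17.1, pandas 2.3.3 and numpy 2.4.6.

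The study calls the libraries biological replicates, each collected from several mice, so p-values measure the spread between such pools. The most alike libraries, PDX1 P33T replicates 3 and 5, had a median chi-square of 1.20 per gene against 0.455 from counting alone, and were kept as separate. Members and lists were chosen with earlier results of these data known. Named were all members, the 3 most abundant genes of each further list, genes called or without overlap, and the 3 genes most like *Meg3*. *Rtl1*, *Kcnq1*, *Kcnq1ot1*, *Usp29*, *Zfp57*, *Cdkn2c*, *Igf1* and *Igf1r* were named for position or role after the values were seen, as were marker genes and genes that share a length with a member. Alternatives were the pseudocount, a filter on low values, rescaling, leaving out libraries, replicate blocks, a narrower match, the fold threshold, the adjustment and TPM.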

Additional observations from a re-analysis of the deposited data

Results flagged for a closer look

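Of 31 gene and genotype groups looked at, 4 held a library far from the others by Dixon's criterion, which chance meets in about 1 in 20 groups. *Rian* was at 7.71 FPKM in PDX1 P33T replicate 2, while the other 4 libraries lay between 3.71 and 4.65. *Meg3* was at 1.66 FPKM in the same library, against 0.805 to 1.04 in the others. *Grb10* was at 2.59 FPKM there, against 3.76 to 4.07. These values come from the library that held an extreme value at 78.3% of genes. *Igfbp5* was at 126 FPKM in wild-type replicate 3, against 22.0 to 48.0 in the other wild-type libraries, the library with the highest summed endothelial markers.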

How the results depend on the processing

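The 4 placed members were not called under any of the alternatives that could be run for them, and *Osbpl5* was called lower in all 22, with log2 fold changes from -2.12 to -1.47. *Mirg* has no value under the filter of 1 FPKM. *Rian* turned in direction, to -0.016, without wild-type replicates 2 and 3 and PDX1 P33T replicate 2, and was 0.15 with wild-type replicate 1 left out in place of replicate 2, both choices added after seeing the data. Without wild-type replicates 1 and 3 and PDX1 P33T replicate 2, 28 genes were called in all. Leaving out 1 library at a time gave -0.33 to -0.034 for *Meg3*, 0.22 to 0.48 for *Rian*, -0.64 to -0.28 for *Mirg* and 0.097 to 0.17 for *Peg3*. Over all alternatives the lowest limma adjusted p was 0.213 for *Meg3*, 0.207 for *Rian*, 0.122 for *Mirg* and 0.286 for *Peg3*.

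The count of all genes called, 6, was 3 with a pseudocount of 0.01, 3 with the filter of 1 FPKM, 3 with a match within 2-fold, 2 at an absolute log2 fold change of 1.5 and 13 with p adjusted over the fitted genes. It was between 3 and 8 with 1 library left out, and 3 without wild-type replicate 2, 5 or 6 or without PDX1 P33T replicate 1, 3, 4 or 5. The replicate block by the titles left 1 gene and that by the library names 3, each dropping the wild-type library without a partner. Libraries of the same number did not deviate together, with correlations from -0.55 to 0.08. With so few pairs, and with libraries that stand apart, these values cannot settle whether the numbers pair libraries. The blocks changed no call of a named gene. The cause of these changes was not tested.

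Rescaled to TPM, the mean PDX1 P33T levels were 92.6 for *Peg3*, 10.4 for *Dlk1*, 9.41 for *Rian*, 7.27 for *Grb10*, 2.17 for *Cdkn1c*, 2.04 for *Meg3*, 0.933 for *Plagl1*, 0.511 for *Mirg* and 0.227 for *Igf2*, with the same order of the means. The FPKM of a PDX1 P33T library sum to 514439 on average, and TPM scales this sum up in each library. Depth limits *Igf2*, with 8 to 39 reads, and *Mirg*, with 23 to 102 reads in wild-type.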
